A study of Homo sapiens with 14 samples.

Results

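The genes that code for subunits of the respiratory chain complexes were followed through lists of STAT5 and BCL6 ChIP-seq intervals in DLD-1, an established line of human colorectal adenocarcinoma cells. Genes were chosen by symbol: the NDUFA, NDUFB, NDUFC, NDUFS and NDUFV families, SDHA to SDHD, all symbols that begin with UQCR or ATP5, and the COX4 to COX8 families, with numbered pseudogene symbols dropped. This rule found 79 of the 26333 symbols in the 6 lists. Of these, 78 are protein-coding in RefSeq and 1, ATP5J2LP, is a pseudogene with a single control STAT5 interval (values of 2 and 0). Another 8 protein-coding genes that match the rule had no interval under their symbol in these lists (NDUFA7, UQCRC1, COX7A1, COX7B, COX7B2, COX8A, ATP5MGL and ATP5MF-PTCD1). Among all 20056 protein-coding genes, 2859 (14.3%) were in none of the 4 separate lists. With the 8 added, 86 genes were considered. They comprised 36 genes of complex I, 4 of complex II, 9 of complex III, 18 of complex IV and 16 of complex V, with NDUFA4 placed in complex IV. The remaining 3 carry an ATP5 name and are not subunits: ATP5S (DMAC2L in RefSeq), ATP5SL (DMAC2) and the read-through gene ATP5MF-PTCD1. Of the 79 symbols, 19 are older names, and the files' names are kept here.

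The activator groups received the plasmid pEGFP-C1199Tiam1, which codes for a fragment of TIAM1, an exchange factor that loads RAC1 with GTP, and vehicle. The inhibitor groups received the same plasmid and 20 microM EHT 1864, a RAC inhibitor, and the labels give 16 h for both treatments. Control groups received an empty vector, with no vehicle named, so plasmid and vehicle cannot be told apart. All groups were transiently transfected and were taken for ChIP 20 h later with antibodies to STAT5 (C-17) or BCL6 (N-3). Values exist for activator STAT5 (libraries 3 and 9), inhibitor BCL6 (libraries 6, 12 and 14), control STAT5 (libraries 1 and 7) and control BCL6 (libraries 2 and 8). Not analysed here were 3 libraries of activator BCL6, 2 of inhibitor STAT5 and any input library. The sources used here do not give the share of cells that took up the plasmid, so fewer bound cells and weaker binding per cell cannot be told apart. Whether replicates are separate cultures is not stated in the labels, so their spread may be technical, and intervals near gene starts cannot check the labelled cell type by its markers.

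Respiratory complexes I to IV sit in the inner mitochondrial membrane and pass electrons from NADH and succinate to oxygen. Complexes I, III and IV pump protons on the way, and complex V, the ATP synthase, uses the proton gradient to make ATP. Most subunits are coded in the nucleus, and their promoters are known for sites of NRF1 and of ETS factors such as GABP, with SP1 and YY1. STAT5 and BCL6 are transcription factors that recognise similar DNA letters, and STAT5 mostly switches genes on whereas BCL6 represses them.

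The promoters shown first are those into which an activator STAT5 interval reached by its distance from the gene start. Sequences are RefSeq windows of build GRCh38.p14, from 250 bases before to 50 bases after the start, whereas the intervals are of GRCh37; only the distance from each annotation's own start was carried over, and these starts can differ. Windows were those whose gene length was nearest to the Ensembl gene of the files (12635 against 12634 bases for NDUFC1, 8107 against 8119 for ATP5H, and 6172 against 6191 for NDUFB4). NDUFC1, chr4:139302502-139302801 on the minus strand, codes for a membrane-arm subunit of complex I, and capitals mark an SP1 motif. ATP5H, chr17:75046920-75047219 on the minus strand, codes for subunit d of the ATP synthase stalk, and capitals mark an SP1 and then an ETS motif. NDUFB4, chr3:120596086-120596385 on the plus strand, codes for another membrane-arm subunit of complex I, and capitals mark an NRF1 motif.
NDUFC1: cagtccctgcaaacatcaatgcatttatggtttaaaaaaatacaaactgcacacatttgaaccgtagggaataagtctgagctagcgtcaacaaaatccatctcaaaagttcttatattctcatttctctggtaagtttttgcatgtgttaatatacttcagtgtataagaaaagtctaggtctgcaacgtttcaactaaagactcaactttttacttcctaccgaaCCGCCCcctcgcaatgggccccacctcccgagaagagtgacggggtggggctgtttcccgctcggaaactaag
ATP5H: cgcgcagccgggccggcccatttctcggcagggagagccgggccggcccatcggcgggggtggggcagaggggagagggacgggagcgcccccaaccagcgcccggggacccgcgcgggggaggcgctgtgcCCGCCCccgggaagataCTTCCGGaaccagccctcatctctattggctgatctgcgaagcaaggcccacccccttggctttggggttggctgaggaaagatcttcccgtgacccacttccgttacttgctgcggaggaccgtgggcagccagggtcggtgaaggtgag
NDUFB4: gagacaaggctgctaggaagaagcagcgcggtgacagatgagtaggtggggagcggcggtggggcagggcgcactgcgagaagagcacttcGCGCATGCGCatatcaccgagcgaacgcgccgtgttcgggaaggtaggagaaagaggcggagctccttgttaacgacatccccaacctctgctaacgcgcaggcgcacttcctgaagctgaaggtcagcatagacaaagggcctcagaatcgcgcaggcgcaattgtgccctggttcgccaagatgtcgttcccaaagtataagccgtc

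In NDUFC1 the SP1 motif (GGGCGG, here on the other strand) lay at bases -23 to -18, and the activator STAT5 interval covered -5 to 70 of the Ensembl gene start. In ATP5H the SP1 motif lay at -118 to -113 and the ETS motif (CCGGAAG, also on the other strand) at -101 to -95, within the span from -184 to 133 that the activator STAT5 interval covered. In NDUFB4 the NRF1 motif lay at -159 to -150, and the interval ended upstream of it, at -289 to -174. None of these windows held the STAT5 motif TTCNNNGAA. ATP5S also had intervals in this span and is named only.

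The STAT5 motif was found in windows of SDHB, COX5B, COX7A2 and NDUFA5. Their sites are shown with 10 bases on either side and the motif in capitals, since SDHB and NDUFA5 were in the activator STAT5 list and COX5B and COX7A2 were in the control lists only. The NRF1 motif, a palindrome, was found in windows of NDUFB4, NDUFA8, ATP5C1 and SDHD, and its sites are shown in the same way for their place by the gene start.
SDHB STAT5: ctcctcccctTTCTGAGAAggtcacgggg
COX5B STAT5: ctgcagcttgTTCCCGGAAgttttgctgc
COX7A2 STAT5: agcatgtggcTTCTGTGAAtgactcctga
NDUFA5 STAT5: tcctgattggTTCAAAGAActcttatgaa
NDUFB4 NRF1: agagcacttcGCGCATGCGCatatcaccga
NDUFA8 NRF1: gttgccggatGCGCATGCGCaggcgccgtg
ATP5C1 NRF1: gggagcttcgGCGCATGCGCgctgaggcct
SDHD NRF1: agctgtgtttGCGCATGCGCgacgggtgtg

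At NDUFA5, the STAT5 motif spanned -3 to 6 around a RefSeq start and -43 to -35 from another. Its activator STAT5 intervals lay at 99 to 306 and at -2422 to -2365 from the Ensembl start. At SDHB the motif spanned -231 to -223 and the activator STAT5 interval -1053 to -933. For these sites the windows were not matched to the Ensembl gene by length, so the RefSeq and Ensembl starts may lie far apart. These distances therefore cannot show whether an interval covered a motif. RefSeq windows were found for 63 of the 78 protein-coding genes in the lists, 76 windows in all, and motifs were searched on both strands in these and in 22199 windows of protein-coding genes. TTCNNNGAA was in 5 of the 76 windows (6.58%), at 4 genes, beside 6.79% of all windows. It was thus about as frequent as in promoters at large. Overlapping windows of NDUFA5 held the same site. Windows of the same gene are not independent, whereas the exact intervals given here treat them as if they were. The BCL6 motif TTCCTNGAA, every match of which is also a match of TTCNNNGAA, was in 0 of 76 windows (up to 4.74% by the exact interval), beside 1.30% of all windows. The NRF1 motif was in 4 windows (5.26%, 95% interval 1.45% to 12.9%), beside 1.50%. AAGATGGC, a YY1 motif, was in 11 windows (14.5%, 7.45% to 24.4%), beside 3.53%, and the ETS motif was in 20 (26.3%, 16.9% to 37.7%), beside 12.8%. The SP1 motif was in 45 (59.2%, 47.3% to 70.4%), beside 56.3%. In the 36 windows of activator STAT5 genes alone, the STAT5 motif was in 3 (8.33%), the NRF1 and YY1 motifs in 4 each (11.1%), the ETS motif in 6 (16.7%) and the SP1 motif in 21 (58.3%). The 3 windows with the STAT5 motif were of SDHB and NDUFA5, and those of NDUFA5 share the site. Median GC content was 59.2% in the respiratory chain windows and 62.3% in all windows, with a median of 21 CpG in each. These matches describe letters and not binding.

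In the lists, an interval has a signed distance from a gene start between 3000 bp upstream and 1000 bp downstream, and 1 whole number per library, called its value here. The header does not name the value, which was read as a count of reads. It was never 1, and among intervals that only library 2 of control BCL6 held, median width was 291 bp at a value of 2 and 533 bp at a value of 6. Each interval of a treated list (activator STAT5 or inhibitor BCL6) had 2 or more in all its libraries, whereas a control interval needed it in at least 1 library. Treated intervals shared no base with control peaks of the same antibody (0 of 14047 in activator STAT5 and 0 of 1652 in inhibitor BCL6), so the numbers of intervals do not compare occupancy between conditions. Values of the respiratory chain genes summed to 105 and 134 in activator STAT5, to 7, 4 and 4 in inhibitor BCL6, to 180 and 198 in control STAT5 and to 158 and 205 in control BCL6. Apart from inhibitor BCL6, which had 2 intervals, a value of 2 made up 52.5% to 78.5% of the nonzero entries of a library, so an individual interval carries little precision.

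Activator STAT5 intervals lay at 31 of the 86 genes, with 40 intervals. That is 36.0% (exact 95% interval 26.0% to 47.1%), beside 26.1% of all protein-coding genes, a background that sits at the lower bound of the interval. Complex V had 8 of 16 genes (50%, 24.7% to 75.3%), complex I 12 of 36 (33.3%, 18.6% to 51.0%), complex IV 6 of 18 (33.3%, 13.3% to 59.0%), complex II 2 of 4 and complex III 2 of 9. The background lies within the exact interval of every complex, and the intervals of the complexes overlap one another, so no complex stood apart at these numbers. Within complex I, the 12 genes were all among the 29 supernumerary subunits (41.4%, 23.5% to 61.1%), and the 7 nuclear genes of the catalytic core, which carry the flavin and iron-sulfur centres, had none (0% to 41.0%). These exact intervals overlap too. In inhibitor BCL6, 2 of the 86 genes had an interval (2.33%, 0.283% to 8.15%), NDUFA8 and NDUFS5, beside 3.3% of all protein-coding genes.

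**Figure D1:**
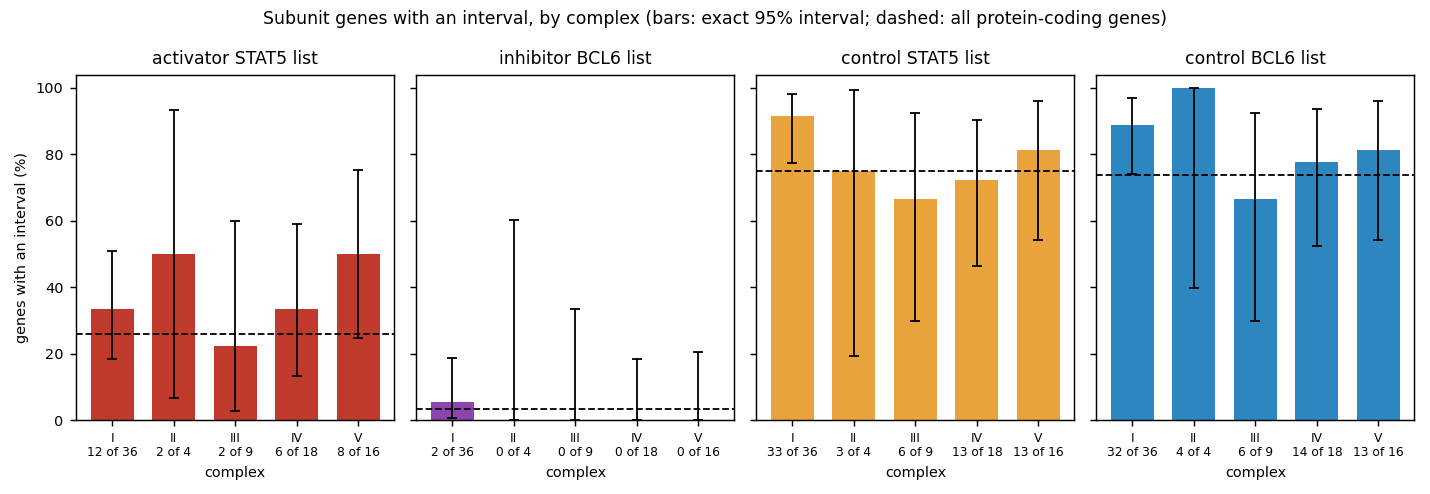
Share of subunit genes with at least 1 interval (y axis, %) by complex (x axis, with the number of genes) in the activator STAT5, inhibitor BCL6, control STAT5 and control BCL6 lists. Bars on the columns are exact 95% intervals and the dashed line is the share of all protein-coding genes. Complex V is highest of the larger complexes in activator STAT5 at 50%, with an interval that holds the dashed line at 26.1%.

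Of the 86 genes, 62 (72.1%) had an interval in both control lists, beside 63.6% of all protein-coding genes. Control STAT5 intervals lay at 69 of the 86 genes (80.2%, 70.2% to 88.0%), beside 74.9% of all protein-coding genes, and control BCL6 intervals at 71 (82.6%, 72.9% to 89.9%), beside 73.9%. Complex I had 33 of 36 genes in control STAT5 (91.7%, 77.5% to 98.2%) and 32 of 36 in control BCL6 (88.9%, 73.9% to 96.9%), the exact interval for STAT5 lying above its background and that for BCL6 starting at its own. At NDUFA7, 3 control BCL6 intervals carry the gene's description but no symbol (values of 0 and 3, 0 and 2, and 2 and 0 in libraries 2 and 8) and were not counted; with them complex I would have 33 of 36. Complex III had 6 of 9 in each, complex IV 13 of 18 and 14 of 18, complex V 13 of 16 in each, and complex II 3 of 4 in control STAT5 and 4 of 4 in control BCL6. These counts lean on both libraries of a list: with the pseudogene counted, control STAT5 had 70 genes and 45 without library 1, and control BCL6 had 71 genes and 45 without library 8. Of the 31 activator STAT5 genes, 27 were in both control lists, NDUFA8 among them. COX6B1 and ATP5I were in control BCL6 but not in control STAT5, and NDUFB8 and ATP5J2 in control STAT5 but not in control BCL6. NDUFA8 alone was in all 4 separate lists. In the controls and no treated list were 34 genes with both antibodies, 7 with BCL6 (NDUFA1, NDUFV2, SDHA, UQCR11, UQCRHL, ATP5L and ATP5SL) and 5 with STAT5 (NDUFV1, UQCRFS1, UQCRH and ATP5G1 among them). The counts from the 27 genes on were not made over all protein-coding genes. They have no background beside them and do not set the respiratory chain genes apart.

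**Figure D2:**
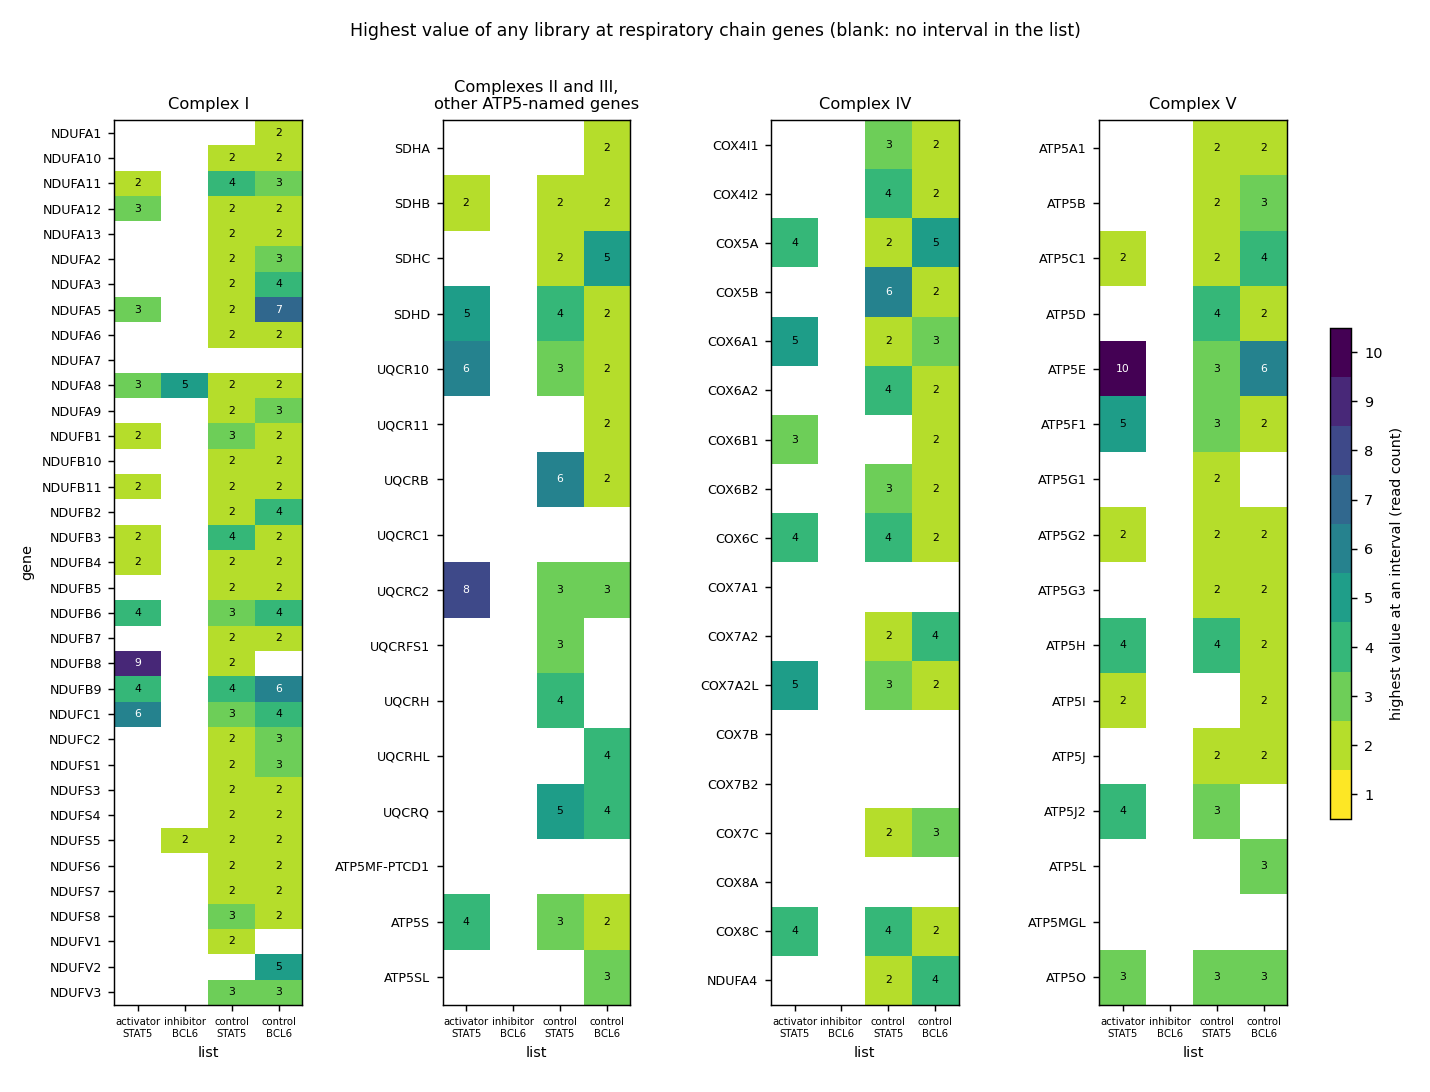
Highest value of any library (colour and number, read count) at the protein-coding genes named here (rows, grouped by complex) in each of the 4 separate lists (columns); blank cells have no interval in the list. The activator STAT5 column is filled at 31 genes and the inhibitor BCL6 column at NDUFA8 and NDUFS5, whereas both control columns are filled at most genes.

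Among the 14 activator STAT5 intervals of complex I, the highest values were at NDUFB8 and NDUFC1. NDUFB8, a membrane-arm subunit often used as a marker of assembled complex I, had values of 3 and 9 in libraries 3 and 9 at chromosome 10, 102289365 to 102289423, inside the gene at 334 to 392 bp. NDUFC1 had values of 6 and 3 at chromosome 4, 140223635 to 140223710, an interval that holds the gene start and touches a control STAT5 peak. NDUFB9, a subunit with the LYR motif, had values of 3 and 4 at chromosome 8, 125550470 to 125550549. These 3 were the complex I intervals with at least 3 in both libraries, and the larger value was in library 9 for NDUFB8 and NDUFB9 and in library 3 for NDUFC1.

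The other complex I genes had lower values. NDUFB6, a membrane-arm subunit, had 2 and 4 at chromosome 9, 32572473 to 32572604. NDUFA8, a twin CX9C protein of the intermembrane space side, had 3 and 2 at chromosome 9, 124923086 to 124923349, an interval listed for MORN5 too. NDUFA12, a late-assembled subunit of the matrix arm, had 3 and 2 at chromosome 12, 95400068 to 95400248, and 2 and 2 at 95398323 to 95398537. NDUFA5, also of the matrix arm, had 2 and 3 at chromosome 7, 123200674 to 123200731, and 2 and 2 at 123198003 to 123198210. At all the remaining complex I genes both libraries had the lowest possible value of 2. They were NDUFA11 (chromosome 19, 5905648 to 5905805, shared with VMAC), NDUFB1 (chromosome 14, 92590437 to 92590516), NDUFB3 (chromosome 2, 201936409 to 201936465, shared with FAM126B), NDUFB4 (chromosome 3, 120314868 to 120314983) and NDUFB11 (chromosome X, 47006352 to 47006554). All of these code for supernumerary membrane-arm subunits.

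In complex II, which links the citric acid cycle to the chain, SDHD and SDHB were in the activator STAT5 list. SDHD, a membrane anchor, had values of 5 and 2 at chromosome 11, 111955139 to 111955277, at -2484 to -2346 bp from the gene start. SDHB, the iron-sulfur subunit, had 2 and 2 at chromosome 1, 17381598 to 17381718. SDHA, which holds the flavin, and SDHC, the other anchor, had none. In complex III, UQCRC2, a core protein, had 3 and 8 at chromosome 16, 21963308 to 21963465, and UQCR10, a small subunit beside cytochrome c1, had 2 and 6 at chromosome 22, 30163932 to 30164120. The UQCR10 interval is listed for ZMAT5 too. Library 9 had the larger value at both complex III genes and library 3 at SDHD.

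Complex IV, cytochrome c oxidase, had 9 intervals at 6 genes. COX7A2L, a factor that joins complexes III and IV into supercomplexes, had values of 3 and 4 at chromosome 2, 42597193 to 42597333, and 2 and 5 at 42599103 to 42599358, and both touched control STAT5 peaks. COX6A1, the widely expressed form of subunit 6A, had 2 and 5 at chromosome 12, 120875254 to 120875538. COX5A, a matrix-side subunit, had 2 and 4 at chromosome 15, 75231733 to 75232058. COX8C, the testis form of subunit 8, had 2 and 4 at chromosome 14, 93810538 to 93810840, the farthest listed distance upstream (3000 bp). COX6B1, which faces the intermembrane space, had 3 and 2 at chromosome 19, 36136796 to 36136977. COX6C had 3 intervals on chromosome 8 with 2 and 3, 2 and 4, and 2 and 3. The first 2 of them, 100905511 to 100905522 and 100906718 to 100906721, were only 12 and 4 bp wide and touched control STAT5 peaks, and the other was at 100907103 to 100907244. The 4 bp interval filled the whole space between control STAT5 peaks at 100906243 to 100906717 and 100906722 to 100906990. Apart from COX6B1, library 9 had the larger value at every complex IV interval.

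Complex V had 10 intervals at 8 genes of the ATP synthase. The other 8 had none: ATP5A1 and ATP5B, which code for the catalytic alpha and beta subunits, ATP5D of the central stalk, ATP5J of the peripheral stalk, ATP5G1 and ATP5G3 of the c ring, ATP5L of the membrane part, and ATP5MGL. ATP5E, the epsilon subunit of the central stalk, had the highest activator STAT5 value of any respiratory chain gene, 2 and 10, at an interval of 2 bp (chromosome 20, 57607692 to 57607693). The value of so narrow an interval can belong to a wider peak behind it. ATP5C1, the gamma subunit of the same stalk, had 2 and 2 at chromosome 10, 7830641 to 7830793, shared with KIN. Of the peripheral stalk, ATP5F1 (subunit b) had 3 and 5 at chromosome 1, 111990464 to 111990660, and 3 and 2 at 111990684 to 111990846. ATP5H (subunit d) had 2 and 4 at chromosome 17, 73042941 to 73043258, over the gene start and shared with KCTD2. ATP5O, the OSCP subunit that ties the stalk to the catalytic head, had 3 and 2 at chromosome 21, 35287456 to 35287542. Of the membrane part, ATP5J2 (subunit f) had 4 and 2 at each of 2 neighbouring intervals on chromosome 7, 99063087 to 99063351 and 99063421 to 99063591, both shared with PTCD1. ATP5I (subunit e) had 2 and 2 at chromosome 4, 667185 to 667241, and ATP5G2, a gene of the c ring, had 2 and 2 at chromosome 12, 54073065 to 54073086. ATP5S, a coupling-factor-like protein outside the complex, had 3 intervals on chromosome 14, with values of 4 and 4, 4 and 2, and 2 and 2.

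Over the 40 intervals, values averaged 2.63 ± 0.952 in library 3 and 3.35 ± 1.99 in library 9 (SD over intervals), beside means of 2.68 and 3.15 over the whole activator STAT5 list. A value of at least 3 in both libraries was found at 7 intervals (17.5%), beside 16.9% of the whole list, at NDUFB8, NDUFB9, NDUFC1, UQCRC2, COX7A2L, ATP5F1 and ATP5S. These shares do not set the respiratory chain genes apart from the rest of the list. Numbered pseudogenes of ATP5C1, ATP5F1, ATP5J2, COX6C, NDUFA5, NDUFA12 and NDUFB4 had activator STAT5 intervals of their own, so values at these genes are uncertain where reads match both copies.

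**Figure D3:**
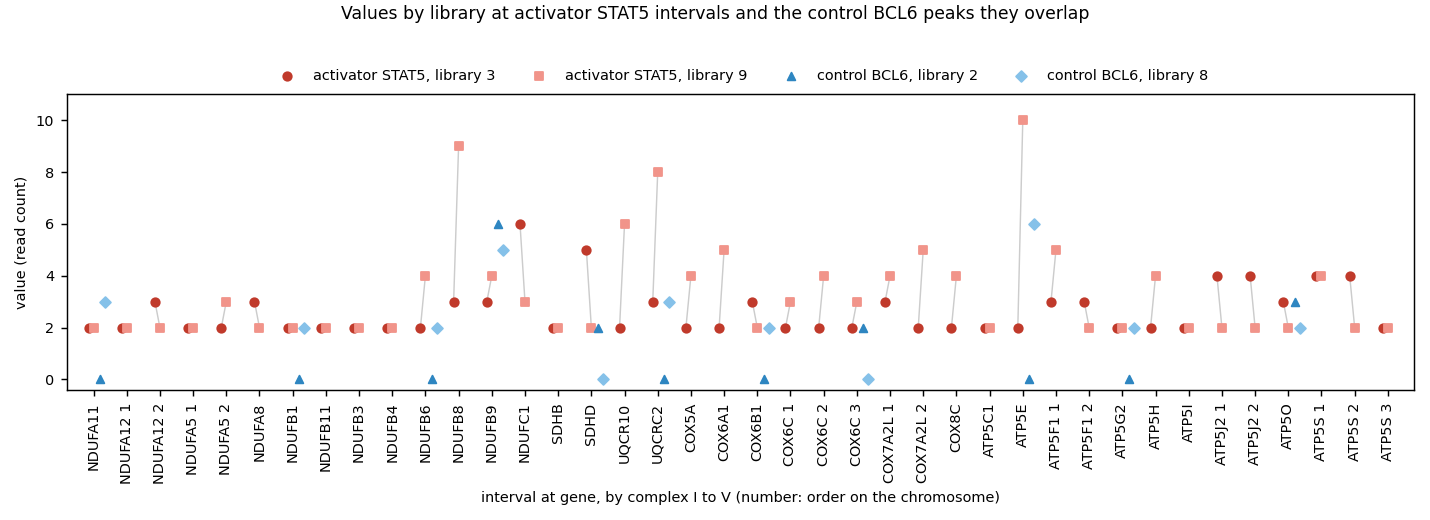
Values (y axis, read count) at the 40 activator STAT5 intervals (x axis, ordered by complex) in libraries 3 and 9, with the values of libraries 2 and 8 at the control BCL6 peak an interval overlapped. Grey lines join the activator STAT5 libraries. Most points sit at 2 to 4, and the tallest are library 9 at ATP5E (10), NDUFB8 (9) and UQCRC2 (8).

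The shared list, which asks where an activator STAT5 interval lay on a control BCL6 peak, held 11 respiratory chain genes with 1 interval each. That is 12.8% of the 86 genes (6.56% to 21.7%), beside 7.43% of all protein-coding genes, and 11 of the 40 intervals (27.5%, 14.6% to 43.9%), beside 25.6% of the whole activator STAT5 list. The genes were NDUFA11, NDUFB1, NDUFB6 and NDUFB9 of complex I, SDHD of complex II, UQCRC2 of complex III, COX6B1 and COX6C of complex IV, and ATP5E, ATP5G2 and ATP5O of complex V. All 5 complexes were represented. NDUFB9 had activator STAT5 values of 3 and 4 over control BCL6 values of 6 and 5. Its interval filled the whole space between control STAT5 peaks at 125550166 to 125550469 and 125550550 to 125550836. ATP5O had 3 and 2 for activator STAT5 and likewise 3 and 2 for control BCL6. These 2 were the ones whose control BCL6 peak had a value in both libraries.

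At the other 9 genes the control BCL6 peak had a value in 1 library only. ATP5E had activator STAT5 values of 2 and 10 over control BCL6 values of 0 and 6. At UQCRC2 they were 3 and 8 for activator STAT5, against 0 and 3 for control BCL6. SDHD had 5 and 2 for activator STAT5, against 2 and 0 for control BCL6, and COX6C had 2 and 3 beside 2 and 0. At 5 more genes library 2 was at 0 and library 8 carried the control BCL6 peak, with 2 and 4 for activator STAT5 beside 0 and 2 for control BCL6 at NDUFB6, 3 and 2 beside 0 and 2 at COX6B1, 2 and 2 beside 0 and 3 at NDUFA11, and 2 and 2 beside 0 and 2 at both NDUFB1 and ATP5G2. Without library 8 the overlap was 4 intervals, and it was 2 when control peaks needed a value in both libraries.

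Within control cells, 42 of the 147 control STAT5 intervals at these genes (28.6%, 21.4% to 36.6%) overlapped a control BCL6 peak, beside 30.2% of all control STAT5 intervals. These 42 lay at 34 genes, and leaving out any of the 4 control libraries gave 19 to 26 overlaps. Control STAT5 intervals were wider (median 304 bp, against 155.5 bp in activator STAT5) and had another entry rule. Their share is therefore no matched background for the activator STAT5 overlap. The list of inhibitor BCL6 intervals on control STAT5 peaks held 0 of the 86 genes (up to 4.20%), beside 0.863% of all protein-coding genes.

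Although activator STAT5 intervals avoided every base of control STAT5 peaks, 8 of the 40 (20%, 9.05% to 35.6%) directly touched one, beside 18.9% of the whole list. They were at NDUFA12, NDUFB9, NDUFC1 and UQCR10, with 2 each at COX6C and COX7A2L. At NDUFB9 and at the 4 bp COX6C interval a control STAT5 peak lay directly on either side. At UQCRC2, COX5A, SDHB and NDUFB1 the gap was 10, 15, 24 and 24 bases. The median gap was 444.5 bases, beside 471 over the whole list, and 33 intervals (82.5%) lay within 1000 bases of a control STAT5 peak, beside 67.6%. The lists do not show these intervals to be gained.

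**Figure D4:**
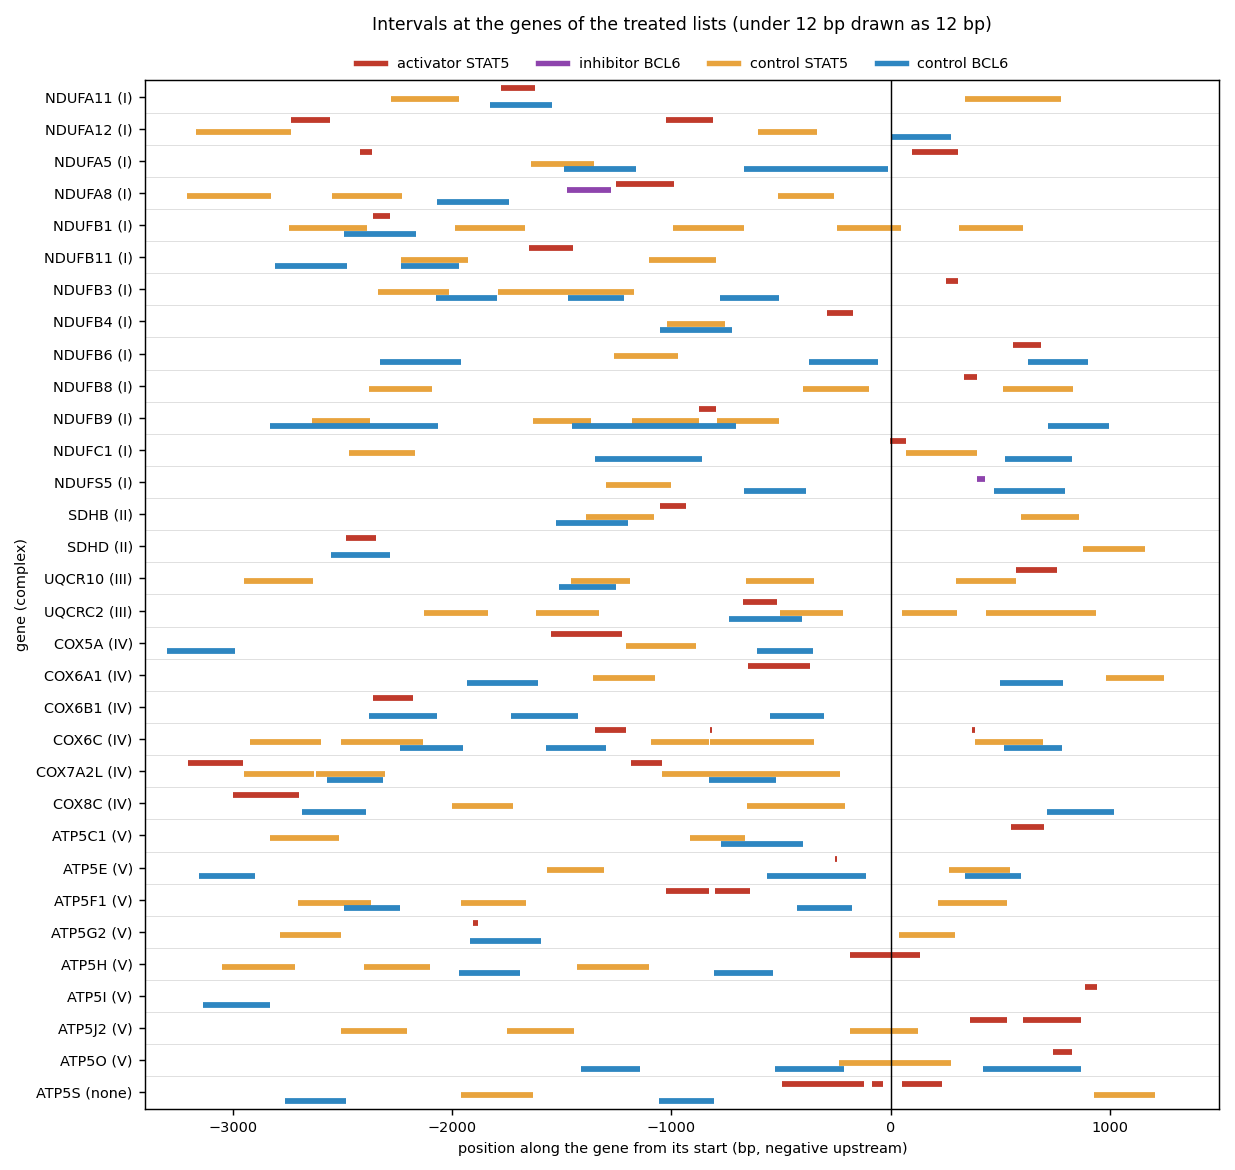
Position of every interval along the gene (x axis, bp from the gene start, negative upstream) at the 32 genes with an activator STAT5 or inhibitor BCL6 interval (rows, complex in brackets), with the list given by colour. Activator STAT5 intervals at NDUFC1 and ATP5H cross the gene start at 0, and those at COX7A2L and COX6C abut control STAT5 intervals.

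The inhibitor BCL6 intervals were both at complex I genes. NDUFA8 had 5, 2 and 2 in libraries 6, 12 and 14 at chromosome 9, 124923376 to 124923573, at -1475 to -1278 bp from the gene start. That interval lay 26 bases from the activator STAT5 interval of the same gene, the closest approach of the 2 treated lists at a respiratory chain gene, and 266 bases from the nearest control BCL6 peak. NDUFS5, another twin CX9C protein, had 2, 2 and 2 at chromosome 1, 39492387 to 39492423, a 37 bp interval at 396 to 432 bp inside the gene. Its control BCL6 peak, 38 bases away at 39492462 to 39492787, had values of 0 and 2. Library 6 alone was above 2, and at NDUFA8 only. Neither interval held a gene start (2.54% of the whole list did) or had a value of at least 3 in all 3 libraries (6.05% of the list).

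By position, activator STAT5 intervals had a median listed distance of -738.5 bp, and the nearer edge lay a median of 768.5 bases from the gene start, beside 949 over the protein-coding genes of the list. Within 500 bases lay 13 of 40 (32.5%), beside 27.8%. The gene start itself was held by 2 intervals, at NDUFC1 and ATP5H (5%, beside 3.67% of all intervals of the list). Of the 40, 13 (32.5%) were listed for a neighbouring gene as well, beside 21.7% of all entries of protein-coding genes, so at NDUFA8, NDUFA11, NDUFB3, NDUFB9, NDUFC1, UQCR10, ATP5C1, ATP5H, ATP5J2 and ATP5S the interval cannot be assigned to the respiratory chain gene alone. Median width was 155.5 bp (2 to 375 bp), beside 141 bp over protein-coding genes, and 4 intervals were under 50 bp (10%, beside 18.4%), at ATP5E, ATP5G2 and COX6C.

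Control STAT5 intervals at respiratory chain genes had a median listed distance of -970 bp and 50 of 147 (34.0%) lay within 500 bases of the gene start, beside 32.0% over protein-coding genes. Control BCL6 intervals had a median of -1135.5 bp and 34 of 138 (24.6%) within 500 bases, beside 31.0%. The gene start was held by 7 control STAT5 intervals (4.76%, beside 7.84% of the list), at NDUFB1, NDUFS7, SDHC, ATP5A1, ATP5D, ATP5J2 and ATP5O, and by 5 control BCL6 intervals (3.62%, beside 7.67%), at NDUFA13, UQCR11, UQCRQ, COX4I1 and COX7C. In the 250 bp before the start, 12.8% of the 86 genes had a control BCL6 interval (6.56% to 21.7%), beside 16.9% of protein-coding genes. In the same bin 20.9% had a control STAT5 interval (12.9% to 31.0%), beside 18.4%, and 4.65% an activator STAT5 interval (1.28% to 11.5%), beside 2.88%. In the bin from -1250 to -1000 bp 8.14% had an activator STAT5 interval (3.34% to 16.1%), beside 3.64%, the highest bin of that list.

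**Figure D5:**
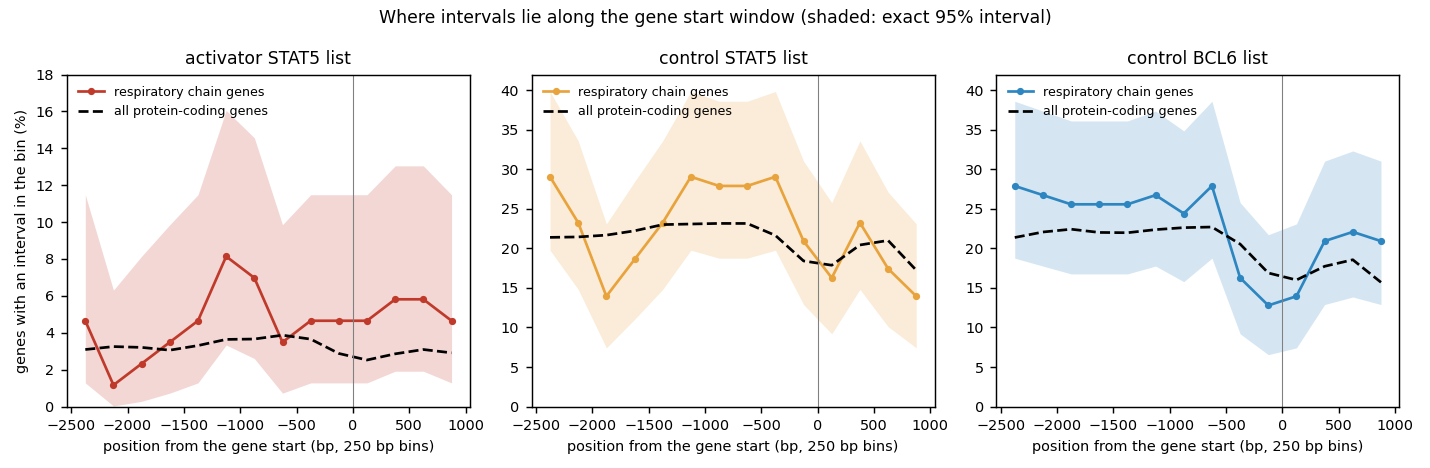
Share of genes with an interval in each 250 bp bin (y axis, %) by position from the gene start (x axis, bp), for the 86 respiratory chain genes (points and line, with exact 95% intervals shaded) and all protein-coding genes (dashed). The dashed line lies inside the shaded band in every bin, and the control BCL6 line falls to 12.8% just before the start, beside 16.9%.

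Of the control intervals, few were found in both libraries. For control STAT5 these were 12 of 147 (8.16%, beside 9.34% of the list), at 12 genes (14.0%, beside 13.8% of protein-coding genes), and for control BCL6 9 of 138 (6.52%, beside 9.19%), at 8 genes (9.30%, beside 12.4%). Control STAT5 had 5 such genes of complex I (NDUFA8, NDUFA9, NDUFA12 and NDUFS4 among them), SDHC, UQCRC2, 4 of complex IV (COX6B2, COX6C, COX7A2L and COX7C) and ATP5O. Control BCL6 had 5 of complex I (NDUFA5, NDUFA9, NDUFA13, NDUFB9 and NDUFV2), UQCR11, COX7C and ATP5O. NDUFA9, COX7C and ATP5O were thus found in both libraries of both antibodies.

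The control STAT5 interval with the highest summed values in each of complexes II to V reached a sum of 4 to 6. SDHC had 2 and 2 at chromosome 1, 161283880 to 161284339, across its gene start, and SDHD reached the same sum with 0 and 4 at chromosome 11, 111958499 to 111958785. UQCRB, a small complex III subunit at the quinone site, had 0 and 6 at chromosome 8, 97250061 to 97250447, and COX5B, a zinc-binding subunit, had 0 and 6 at chromosome 2, 98261034 to 98261433. ATP5O had 2 and 3 at chromosome 21, 35288009 to 35288519, across its gene start. The highest values, 6 at UQCRB and COX5B, came from library 7 alone.

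In control BCL6 the interval with the highest summed values was at NDUFB9, with 6 and 5 at chromosome 8, 125549889 to 125550640, and a second NDUFB9 peak at 125548513 to 125549279 had 4 and 2. NDUFA5 had 7 and 2 at chromosome 7, 123198319 to 123198978, and NDUFV2, a core subunit with an iron-sulfur centre, 3 and 5 at chromosome 18, 9100210 to 9100725. The top of complex II was SDHC with 5 and 0 at chromosome 1, 161284507 to 161285141, and of complex IV COX5A with 5 and 0 at chromosome 15, 75233502 to 75233810. In complex III, UQCRQ had 4 and 0 at chromosome 5, 132201125 to 132201614, UQCRHL, a copy of the UQCRH gene without introns, had 0 and 4, and UQCR11 had 2 and 2. ATP5E led complex V with 0 and 6 at chromosome 20, 57607549 to 57608001, the peak under its activator STAT5 interval. NDUFB9, NDUFA5 and NDUFV2 had a value in both libraries, whereas at SDHC, COX5A, UQCRQ, UQCRHL and ATP5E 1 library was at 0.

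Several subunits of complex IV exist as tissue forms and widely expressed forms. Of the tissue forms COX4I2, COX6A2, COX6B2, COX7A1, COX7B2 and COX8C, the activator STAT5 list held 1 of 6 (COX8C) and each control list 4 of 6. Of the widely expressed forms COX4I1, COX6A1, COX6B1, COX7A2, COX7B and COX8A, the activator STAT5 list held 2 of 6 (COX6A1 and COX6B1), control STAT5 3 of 6 and control BCL6 4 of 6. Intervals were thus listed at tissue forms about as often as at their widely expressed partners, in numbers too small to separate them.

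Genes that assemble or regulate the complexes were counted beside the subunits. Of 45 assembly factors, 15 had an activator STAT5 interval (33.3%, 20.0% to 49.0%), again beside 26.1% of protein-coding genes, and none had an inhibitor BCL6 interval. The highest summed values were at SDHAF1, a complex II factor, with 5 and 6, at COA5, a complex IV factor, with 6 and 4, and at NDUFAF6, a complex I factor, with 4 and 6 at an interval of 1 bp. Of 12 regulators of respiratory genes, 6 had one (50%, 21.1% to 78.9%): SP1 with 4 and 7, GABPB1 with 2 and 8, GABPA with 2 and 5 across its gene start, YY1 and TFAM with 2 and 4 each, and ESRRA with 2 and 2. GABPA and GABPB1 code for the subunits of the ETS factor GABP, and TFAM for the factor that packs and transcribes mitochondrial DNA. SP1, YY1, GABPB1 and TFAM were also in the shared list, 4 of 12 (33.3%, 9.92% to 65.1%), beside 7.43% of protein-coding genes. NRF1, PPARGC1A, PPARGC1B, PPRC1, TFB1M and TFB2M had no activator STAT5 interval. Of 16 genes of cytochrome c, coenzyme Q and other carriers, 3 had one (18.8%, 4.05% to 45.6%), namely CYCS, PDSS2 and COQ4.

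For scale, 27 of 86 cytosolic ribosomal protein genes (31.4%, 21.8% to 42.3%) and 29 of 77 mitochondrial ribosomal protein genes (37.7%, 26.9% to 49.4%) had an activator STAT5 interval. In inhibitor BCL6 these families had 3 (3.49%) and 7 (9.09%), and in the list of activator STAT5 intervals on control BCL6 peaks 4 (4.65%, 1.28% to 11.5%) and 10 of 77 (6.41% to 22.6%). The respiratory chain genes, at 36.0%, 2.33% and 12.8% in the same lists, lay within the exact intervals of the mitochondrial ribosomal genes in activator STAT5 and in the shared list, and below that of the same family in inhibitor BCL6 (3.73% to 17.8%), which overlaps their own. They lay within the exact interval of the cytosolic ribosomal genes in activator STAT5 and in inhibitor BCL6, and above it in the shared list, where it also overlaps their own.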

How the data were processed

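Groups of ChIP-seq libraries were read from the labels, and 9 of the 14 libraries have values in the authors' deposited lists of intervals. The submitters' processing notes name CASAVA 1.8.2, Bowtie 0.12.7 and the build GRCh37; which program called peaks, and at which threshold, the sources used here do not give. The lists hold 1 whole number per interval and library, deposited by the authors without a named unit and read here as a count of reads. Widths of intervals were deposited by the authors too, with the distance in bp to an Ensembl gene start.

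Rows were selected by gene symbol. Symbols were matched, directly or through an older symbol, to RefSeq (GRCh38.p14), which was used for names, gene types and promoter letters only. Overlap meant at least 1 shared bp, and 2 intervals with no base between them were said to touch. Shares have exact Clopper-Pearson 95% intervals (Python 3.11.15, SciPy 1.17.1), which cover counting error only. No test between conditions was made. The selection and overlap steps were tested on simulated lists. Every gene of a treated list was named, and in each control list the gene with the highest summed values of each complex; 1 such gene of complex I is not reported here. Control genes with a value in both libraries, and genes of other families, were named after their values were seen. The genes and lists were chosen with earlier results of these data known. The sources used here give no depth. Alternatives were other minimum values, widths, distances, overlaps and backgrounds, and leaving out each library.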

Additional observations from a re-analysis of the deposited data

How the results depend on the processing

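The 31 activator STAT5 genes became 22 with a value of at least 3 in a library or a distance of at most 1000 bp, and 29 with a width of at least 50 bp. The 2 inhibitor BCL6 genes became 1 under each of these settings. Control STAT5 genes (70) became 31 with a value of at least 3, 12 with a value in every library, and 45 to 53 with 1 library left out. Control BCL6 genes (71) became 28, 8 and 45 to 52 under the same settings, and 47 within 1000 bp. Treated counts did not change without a library, since their lists need a value in all of them. Against all symbols, backgrounds were 12.8% (activator STAT5), 1.6% (inhibitor BCL6), 37.8% (control STAT5) and 37.4% (control BCL6). The 11 intervals on control BCL6 peaks became 2 with peaks of both libraries and 4 to 9 with 1 control library left out. The 42 control overlaps became 20 when an overlap had to cover the larger part of the interval, and 19 to 26 with 1 library left out. Median distances for the nearest interval of each gene were -651 bp in activator STAT5, -384 bp in control STAT5 and -535 bp in control BCL6. Over all settings, 24 values moved from the reported one beyond the limit set for its kind of result, and 22 did not. Why they moved was not tested. No paired analysis was made, because the labels do not state which libraries belong together and no result comes from a test. The sources used here give no depth of the libraries, and values of mostly 2 limit what an individual interval can show.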

Other observations

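Subunit genes of the ATP synthase whose symbols lie outside the naming rule also had activator STAT5 intervals. USMG5 (ATP5MK in RefSeq) had 3 of them on chromosome 10, with values of 3 and 3, 2 and 3, and 6 and 2 in libraries 3 and 9, and C14orf2 (ATP5MJ) had 1 on chromosome 14 with 2 and 2. ATPIF1, the inhibitor protein of the ATP synthase, had 1 control STAT5 interval with 7 and 0 and 1 control BCL6 interval with 2 and 0.

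Numbered pseudogenes of the respiratory chain families, left out above, were also in the lists. Symbols of this kind numbered 19 in activator STAT5 (21 intervals), 3 in inhibitor BCL6, 66 in control STAT5 and 70 in control BCL6. In activator STAT5 they included copies of ATP5C1, ATP5F1, ATP5J2, COX6C, NDUFA5, NDUFA12 and NDUFB4, whose parent genes were in the same list, and in inhibitor BCL6 they were COX7BP2, NDUFA4P2 and SDHCP2. The sources used here do not give how reads that match several places were treated, so values at genes such as NDUFA5, COX6C and ATP5C1 are uncertain where the sequence is repeated.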
